A study of Mus musculus with 6 samples.

Results

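The genes described here encode the membrane, heme synthesis and globin of developing red cells, together with their regulators. They were taken from a list of 33 symbols, with the probe set of highest mean over the 6 arrays chosen for each gene among those that name that gene alone. By this rule 31 of the 33 listed genes had a value, of 18193 genes with such a probe set in the series. For Hbb-b1 the annotation lists a probe set that also names other genes, which was left out, and Ahsp was not analysed here. Marrow was taken from 6 mice of the immunodeficient SCID/Bg strain, which lacks mature B and T lymphocytes and has impaired natural killer cells, and total RNA of all its cells was measured on the Affymetrix Mouse Genome 430 2.0 array, with a separate array for each mouse. The treated group of 3 mice had received NOX-A12, a mirror-image oligonucleotide that binds and neutralises the chemokine CXCL12, and the control group of 3 mice was untreated. The age and sex of the animals, the dose, schedule and time of sampling, and whether red cells were lysed are not stated in the labels.

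Red cells form in the marrow from progenitors that come to depend on erythropoietin, switch on the transcription factors GATA1 and KLF1, and then fill with hemoglobin before they lose the nucleus. Heme is assembled from glycine and succinyl-CoA in a chain of enzymes that starts and ends in the mitochondrion, while spectrin, ankyrin and their partners build the skeleton that lets the cell deform in capillaries. Erythroblasts mature on macrophages and stroma within the marrow, the same space in which CXCL12 retains blood-forming cells.

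All values are the authors' deposited probe-set intensities, and changes are differences of log2(intensity + 16), NOX-A12 minus untreated, with standard errors (SE) from limma, a linear model fitted over all probe sets. Array medians lay between 44.8 and 45.6, and precision is limited by their number, 3 a group. The array of untreated mouse 3 stood apart: 851 of its probe sets differed more than 2-fold from the median of the remaining 5, whereas each of those had 44 to 67 such probe sets. Where leaving out that mouse moved the change of a named gene by over 1.5 times, the values without it are given beside the result or, for the listed genes as a whole, with the comparison of mice. Most markers of the red cell lineage lay well above the array medians in both groups, and 25 of the 31 genes averaged an intensity over 1000. The exception was the Hba-a1 probe set, which read 4.94 to 16.95 and lay below those medians. Fewer red cell precursors and less RNA per precursor cannot be told apart in RNA of whole marrow.

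Erythroid gene expression in treated marrow lay close to that in untreated marrow. Of the 31 genes, 16 had a higher and 15 a lower mean in treated mice, with a median log2 change of 0.00, and the median over all 45037 probe sets was also 0.00. With limma and Benjamini-Hochberg adjustment over all probe sets, 0 of the 31 passed an adjusted p of 0.05, where 0% of all probe sets did. At an unadjusted limma p under 0.05 there were again 0 of 31, against 4.97% of all probe sets. The 3 treated and 3 untreated mice overlapped for all 31 genes, while they did not overlap for 9.85% of all probe sets. The changes ran from -0.25 for Abcb6 to 0.15 for Sptb, and 26 of 31 were smaller than their own SE. That share was not counted over all probe sets, so it is no trait of these genes. The median SE was 0.11 over the 31 genes and 0.13 over all probe sets, and the median size of change 0.05 and 0.10.

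The intervals show what size of change these arrays leave room for at the probe set used for each gene. All 31 of the 95% intervals spanned 0, and 30 lay wholly inside a 1.5-fold change in either direction (0.58 on the log2 scale). The exception was Sptb, whose interval ran from -0.35 to 0.65. These counts hold for the brightest probe set of each gene only, and they were not made over all probe sets. Some other probe sets left more room, such as the second of Epb42 (-0.75 to 1.59). Others stayed inside 1.5-fold, such as the second of Fech (-0.17 to 0.29). The interval of the dim Hba-a1 probe set, -0.56 to 0.13, is not informative in the same way, because adding 16 to an intensity below 20 shrinks any change.

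**Figure D1:**
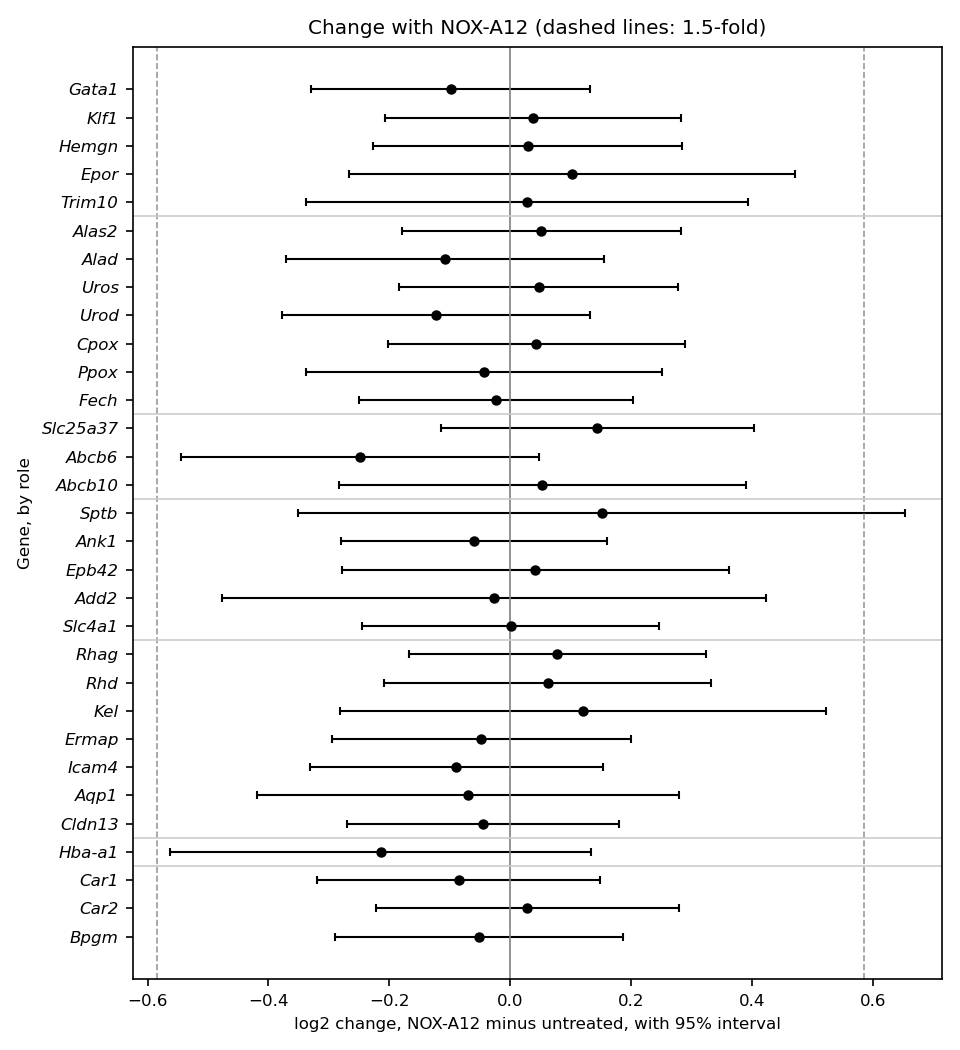
Log2 change of each gene (horizontal axis, NOX-A12 minus untreated, log2(intensity + 16)) with its 95% interval from limma, genes on the vertical axis grouped by role, dashed lines at a 1.5-fold change. All 31 intervals cross 0 and only that of Sptb reaches past a dashed line.

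Among the regulators, Gata1, the zinc-finger factor that commits progenitors to the erythroid and megakaryocyte lineages, had intensities of 1896, 1741 and 1971 in untreated mice 1 to 3 and 1706, 1868 and 1660.2 in treated mice 1 to 3, with untreated mouse 3 highest and treated mouse 3 lowest, and its log2 change was -0.10 ± 0.10. Klf1, the factor that activates adult beta-globin, gave 0.04 ± 0.10, and Epor, the receptor for erythropoietin, gave 0.10 ± 0.16. Trim10, a ring-finger protein of terminal erythroid differentiation, gave 0.03 ± 0.16. Hemgn, a nuclear protein of blood-forming cells, had intensities of 7923, 6841 and 6639.9 in untreated mice 1 to 3 and 6788, 7774 and 7239 in treated mice 1 to 3. Its highest and lowest mice were both untreated, the treated mice lay between them, and its change was 0.03 ± 0.11 (95% interval -0.23 to 0.28). Epor and Trim10 had the widest range among these 5 genes, with 899 in untreated mouse 1 and 605 in untreated mouse 3 for Epor.

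GATA1 binds sequences with GATA at their core, and KLF1 binds CACCC boxes, so promoters of these genes were searched for both. Windows from 250 bases before to 50 after a transcription start were given for 24 of the 33 genes (26 windows, RefSeq, GRCm38.p6). The letters GATAA or TTATC stood in 14 of the 26 windows (53.8%), against 25.4% of all 32851 windows of the same length. CCNCNCCC or its reverse complement GGGNGNGG stood in 17 of 26 (65.4%), against 49.5% of all windows, and both motifs in 6 of 26 (23.1%), against 8.67%. A match is a description of letters and not a bound site. Matches to CCNCNCCC are called CACCC matches here, but the pattern is looser than CACCC. Some marked stretches do not hold those letters, such as the run of G in Hemgn. Of the 26 windows, 1 held neither, that of Abcb10. The 6 windows with both motifs are shown, written 5′ to 3′ in the direction of the gene, with matches to either motif in capitals. They belong to Alas2 (chrX:150547167-150547466, plus strand), Cpox (chr16:58669958-58670257, plus strand), Epor (chr9:21963527-21963826, minus strand), Hemgn (chr4:46404134-46404433, minus strand), Icam4 (chr9:21029182-21029481, plus strand) and Rhd (chr4:134864286-134864585, plus strand).
Alas2: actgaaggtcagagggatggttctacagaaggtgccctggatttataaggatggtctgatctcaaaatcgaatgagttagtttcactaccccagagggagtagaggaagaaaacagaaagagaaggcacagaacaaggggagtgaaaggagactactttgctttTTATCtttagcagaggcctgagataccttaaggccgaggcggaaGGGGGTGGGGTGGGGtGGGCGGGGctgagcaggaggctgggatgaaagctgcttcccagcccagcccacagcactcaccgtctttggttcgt
Cpox: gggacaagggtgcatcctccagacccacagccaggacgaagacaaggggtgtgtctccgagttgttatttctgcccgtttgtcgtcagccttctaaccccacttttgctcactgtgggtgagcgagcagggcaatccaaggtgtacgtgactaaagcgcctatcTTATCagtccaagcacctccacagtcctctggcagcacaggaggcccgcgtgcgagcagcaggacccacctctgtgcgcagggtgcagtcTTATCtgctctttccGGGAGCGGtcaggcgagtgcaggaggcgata
Epor: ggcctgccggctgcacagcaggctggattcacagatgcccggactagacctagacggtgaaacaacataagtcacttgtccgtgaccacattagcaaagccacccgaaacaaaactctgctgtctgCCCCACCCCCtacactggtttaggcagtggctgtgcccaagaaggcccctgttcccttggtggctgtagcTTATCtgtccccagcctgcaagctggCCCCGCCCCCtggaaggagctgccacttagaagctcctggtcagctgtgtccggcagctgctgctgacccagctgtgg
Hemgn: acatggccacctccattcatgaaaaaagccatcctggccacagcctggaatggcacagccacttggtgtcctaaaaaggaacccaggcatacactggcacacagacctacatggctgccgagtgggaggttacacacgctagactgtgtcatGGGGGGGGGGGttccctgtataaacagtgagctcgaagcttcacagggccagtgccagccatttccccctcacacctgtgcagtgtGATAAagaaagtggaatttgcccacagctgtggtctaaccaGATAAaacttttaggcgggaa
Icam4: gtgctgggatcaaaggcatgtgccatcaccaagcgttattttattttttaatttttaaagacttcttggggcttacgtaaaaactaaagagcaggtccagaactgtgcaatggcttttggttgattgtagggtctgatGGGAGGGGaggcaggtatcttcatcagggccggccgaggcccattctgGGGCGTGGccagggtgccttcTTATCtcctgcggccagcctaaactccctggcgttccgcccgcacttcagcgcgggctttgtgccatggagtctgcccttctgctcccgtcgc
Rhd: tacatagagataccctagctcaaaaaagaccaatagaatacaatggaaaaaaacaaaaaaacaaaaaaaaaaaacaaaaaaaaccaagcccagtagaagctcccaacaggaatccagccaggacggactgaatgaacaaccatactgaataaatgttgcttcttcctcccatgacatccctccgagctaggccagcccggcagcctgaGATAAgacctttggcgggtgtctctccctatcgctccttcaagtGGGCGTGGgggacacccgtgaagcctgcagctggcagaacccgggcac
In Alas2 the GATA match began 86 bases before the start and 4 CACCC matches began 42, 40, 35 and 26 bases before it, of which the first 3 overlap. In Epor the GATA match began 54 bases before the start, and in Icam4 and Rhd it began 43 and 42 bases before it.

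Uros, which encodes uroporphyrinogen III synthase, was the heme enzyme gene with 2 annotated starts that differed in these motifs, and both windows are shown for that reason. The upstream window (chr7:133709246-133709545, minus strand) held a CACCC match beginning 32 bases before the start and no GATA match. The downstream window (chr7:133702451-133702750, minus strand) held a GATA match beginning 68 bases before the start and no CACCC match. The arrays did not separate transcripts of the 2 starts.
Uros upstream start: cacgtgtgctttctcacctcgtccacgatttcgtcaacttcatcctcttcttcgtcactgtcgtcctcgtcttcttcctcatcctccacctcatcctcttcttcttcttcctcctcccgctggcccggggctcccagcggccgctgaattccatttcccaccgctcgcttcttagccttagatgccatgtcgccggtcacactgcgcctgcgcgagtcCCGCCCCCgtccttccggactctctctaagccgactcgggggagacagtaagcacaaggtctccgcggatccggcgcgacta
Uros downstream start: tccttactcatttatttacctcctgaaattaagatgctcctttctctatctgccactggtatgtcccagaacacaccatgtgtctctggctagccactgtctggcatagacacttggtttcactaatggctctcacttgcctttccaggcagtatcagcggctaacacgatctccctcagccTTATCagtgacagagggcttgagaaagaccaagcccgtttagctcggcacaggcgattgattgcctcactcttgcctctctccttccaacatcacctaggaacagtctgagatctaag

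The 7 heme enzymes gave 3 higher and 4 lower means, with changes between -0.12 and 0.05. Alas2, the erythroid form of aminolevulinate synthase and the first and rate-setting step, had intensities of 8152, 7754 and 6877 in untreated mice 1 to 3 and 7756, 7783 and 8019 in treated mice 1 to 3. All 3 treated mice lay within the range of the untreated mice, and the change was 0.05 ± 0.10 (95% interval -0.18 to 0.28). Alad, which joins aminolevulinate into porphobilinogen, gave -0.11 ± 0.11. Uros had 3279, 2913 and 2960.3 in untreated mice 1 to 3 and 3152, 3347 and 2959 in treated mice 1 to 3, overlapping values with a change of 0.05 ± 0.10. Urod, the decarboxylase that follows it, had 5972, 4949 and 5730.2 in untreated mice 1 to 3 and 4749, 5202 and 5310.2 in treated mice 1 to 3, where treated mouse 1 was lowest and untreated mouse 1 highest. Its change of -0.12 ± 0.11 was the lowest of the enzymes and did not pass, with a limma adjusted p of 0.967. Cpox and Ppox, the mitochondrial oxidases that make protoporphyrin, gave 0.04 ± 0.10 and -0.04 ± 0.13. Fech, ferrochelatase, which inserts iron to complete heme, had 8925, 8609 and 7674 in untreated mice 1 to 3 and 8099, 8157 and 8505 in treated mice 1 to 3, again with the highest and lowest mouse in the untreated group, and gave -0.02 ± 0.10.

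Among carriers that serve heme synthesis, Abcb6 and Slc25a37 had the smallest unadjusted p of the 31 genes, apart from the dim Hba-a1. Slc25a37, mitoferrin 1, the carrier that brings iron into erythroblast mitochondria, had 8098, 7439 and 6464 in untreated mice 1 to 3 and 7745, 8178 and 8304 in treated mice 1 to 3. The lowest mouse was untreated mouse 3, and the change was 0.14 ± 0.11 (95% interval -0.11 to 0.40). Without that mouse the Slc25a37 change was 0.056, and without untreated mouse 1 it was 0.22. Abcb6, a porphyrin transporter that also carries a blood group antigen, had 736, 625 and 829 in untreated mice 1 to 3 and 565, 652 and 609.6 in treated mice 1 to 3. Only untreated mouse 2 lay among the treated mice, and the change of -0.25 ± 0.13 (95% interval -0.54 to 0.05) had the smallest unadjusted limma p of the 31, 0.0883, with an adjusted p of 0.967. Without untreated mouse 3, the highest of the 6, the Abcb6 change was -0.15. Abcb10, a transporter of the inner mitochondrial membrane that supports hemoglobin synthesis, gave 0.05 ± 0.14.

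The 5 genes of the membrane skeleton gave 3 higher and 2 lower means, and among them was Sptb, the gene with the widest range over the 6 mice of all 31. Slc4a1, the anion exchanger band 3 to which the skeleton is anchored, had 10086, 9330.5 and 8426 in untreated mice 1 to 3 and 8703, 9665 and 9444 in treated mice 1 to 3, with overlapping groups and a change of 0.00 ± 0.10 (95% interval -0.24 to 0.25). Sptb, beta-spectrin, had 664, 424 and 376 in untreated mice 1 to 3 and 455, 596 and 541 in treated mice 1 to 3. The untreated mice alone spanned the whole range, and the change of 0.15 ± 0.21 was 0.39 without untreated mouse 1 and -0.01 without untreated mouse 3. Add2, beta-adducin, which caps actin at the spectrin junctions, had 526, 328 and 411 in untreated mice 1 to 3 and 340.4, 477 and 412 in treated mice 1 to 3, a wide spread in both groups, and a change of -0.03 ± 0.19. Ank1, ankyrin, the link between spectrin and band 3, was even, at 2658, 2685 and 2610.0 in untreated mice 1 to 3 and 2520.0, 2746 and 2376 in treated mice 1 to 3, and gave -0.06 ± 0.09. Epb42, whose product stabilises that link, gave 0.04 ± 0.14.

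The 7 surface proteins gave 3 higher and 4 lower means, from -0.09 to 0.12. Ermap, an adhesion-like protein that carries the Scianna blood group, had 5375, 4941 and 4438 in untreated mice 1 to 3 and 4513, 4740.4 and 4986 in treated mice 1 to 3, with all treated mice inside the untreated range, and gave -0.05 ± 0.11. Rhag and Rhd, which form the Rhesus complex, gave 0.08 ± 0.10 and 0.06 ± 0.12, and Kel, the Kell endopeptidase, gave 0.12 ± 0.17. Icam4, the Landsteiner-Wiener antigen that binds integrins, gave -0.09 ± 0.10, and Cldn13, a claudin of rodent erythroblasts, gave -0.05 ± 0.10. Aqp1, the water channel, gave -0.07 ± 0.15, with treated mouse 1 lowest at 3673 and the other treated mice at 4981 and 5052. Without treated mouse 1 the Aqp1 change was 0.08. Aqp1 is also a gene of endothelium, and the 6 endothelial markers measured were all lower in the mean in treated marrow (median -0.33, summed intensity 639 to 740.4 in untreated and 483 to 523 in treated mice). Their part in the Aqp1 value was not tested.

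Globin could be followed only in part. The single probe set that names Hba-a1 alone was dim, at 16.9, 12.4 and 9.7 in untreated mice 1 to 3 and 9.9, 12.4 and 4.94 in treated mice 1 to 3, and its change of -0.21 ± 0.15 rests on intensities under 20. With an offset of 1 in place of 16 it was -0.52, and with 64 it was -0.076. For Hba-a1 the annotation lists 3 other probe sets, each naming a second alpha-globin gene as well, and these were left out under the rule. Outside the list, Hbb-b2, the adult beta-globin minor chain, had 10951, 11276 and 11221 in untreated mice 1 to 3 and 10642, 10916 and 11391 in treated mice 1 to 3, a change of -0.02 ± 0.08. Its near-identical partner gene could share this signal. The range of Hbb-b2 over the 6 mice was 0.098, against a median range of 0.29 over the 31 genes. Whether so bright a signal hides differences was not tested.

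The red cell enzymes were close between groups. Car2, carbonic anhydrase 2, had 10459, 10062 and 8526 in untreated mice 1 to 3 and 9633, 10096 and 9781 in treated mice 1 to 3, with untreated mouse 3 lowest, and gave 0.03 ± 0.11. Car1, its erythroid relative, gave -0.09 ± 0.10. Bpgm, the mutase that makes 2,3-bisphosphoglycerate and so loosens oxygen from hemoglobin, had 5808, 5646 and 4845 in untreated mice 1 to 3 and 5185, 5247 and 5236 in treated mice 1 to 3. Its treated mice differed little among themselves, and its change was -0.05 ± 0.10. Car2 is also a gene of osteoclasts. Of 6 osteoclast markers, 2 had a higher and 4 a lower mean in treated mice. Their summed intensities were 4455 to 5342 in untreated and 4973 to 5512 in treated mice. Most of each sum was Mmp9, at 3390 to 4223 in untreated and 3711 to 4520 in treated mice, so the sums say little about the other markers. The part of these markers in the Car2 value was not tested.

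**Figure D2:**
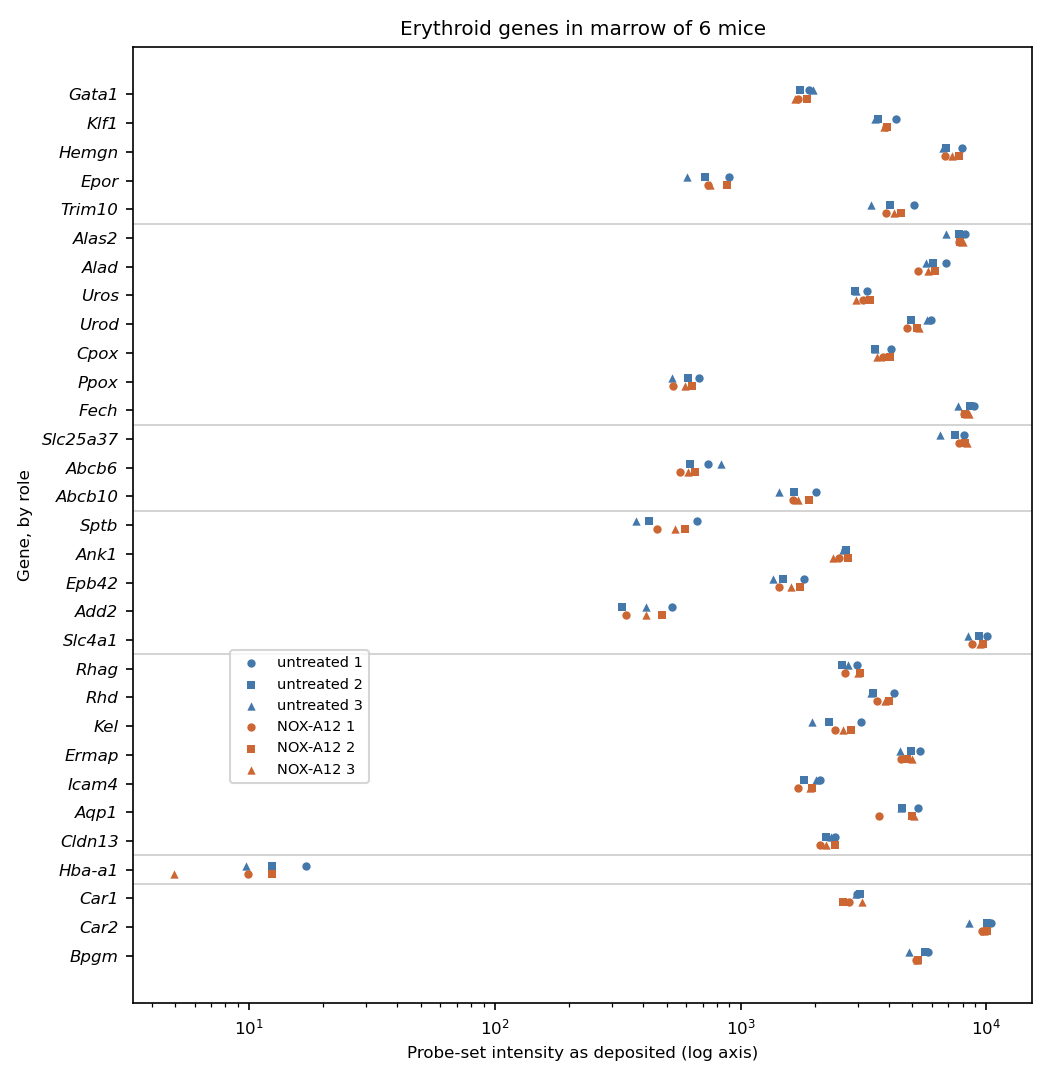
Intensity of each gene (horizontal log axis, as deposited) in 3 untreated (blue) and 3 NOX-A12 (orange) mice, with a marker shape per mouse number and genes grouped by role. The colours overlap for all 31 genes, and Hba-a1 lies below 20 in every mouse.

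Individual mice differed, and many of the erythroid genes shared these differences. Untreated mouse 1 had the highest value for 24 of the 31 genes (77.4%), while it was highest for 17.6% of all 18193 genes. Untreated mouse 3 had the lowest value for 17 of 31 (54.8%), against 21.2% of all genes. In log2 units from each gene's mean over the 6 mice, the median over the 31 genes was 0.15, -0.05 and -0.12 in untreated mice 1 to 3 and -0.08, 0.08 and 0.01 in treated mice 1 to 3. The untreated group thus held both the highest and the lowest mouse, with the treated mice between. The range over the 6 mice had a median of 0.29 over the 31 genes and a maximum of 0.79 for Sptb. The SD of log2 values was larger among untreated than among treated mice for 25 of 31 genes (80.6%), against 63.5% of all genes.

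Because those mice belong to the same group, leaving out either one moved the group difference. Without untreated mouse 1 the median change over the 31 genes was 0.09, with 21 genes higher in the mean, and without untreated mouse 3 it was -0.06, with 5 genes higher. In the latter case the changes ran from -0.30 for Hba-a1 to 0.070 for Rhag, and 11 genes (Klf1, Hemgn, Epor, Trim10, Alas2, Abcb10, Sptb, Epb42, Slc4a1, Kel and Car2) turned from a higher to a lower mean. Gata1 then gave -0.060, Alad -0.17, Uros 0.027, Cpox 0.0076, Ppox -0.14 and Fech -0.087. Rhd gave 0.0036, Ermap -0.12, Aqp1 -0.11 and Bpgm -0.13. Without treated mouse 1 the median was 0.05 with 20 genes higher, and without treated mouse 2 it was -0.03 with 10 higher. None of the 31 genes passed the limma test without any 1 of the 6 mice. The order of mice was close to that of the proliferation markers: the median deviation of Mki67, Top2a, Cdk1, Rrm2 and Aurka was 0.19, -0.02 and -0.20 in untreated and -0.03, 0.07 and 0.03 in treated mice. All 5 were highest in untreated mouse 1, with summed intensities of 21284 to 26652 in untreated and 22862 to 24736 in treated mice. The 6 megakaryocyte markers, of a lineage that shares Gata1, had -0.31, 0.22 and 0.27 in untreated and -0.13, -0.19 and 0.14 in treated mice, with untreated mouse 1 lowest and summed intensities of 12181 to 15526 in untreated and 12915 to 14985 in treated mice. The part of either group of markers in the erythroid values was not tested.

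**Figure D3:**
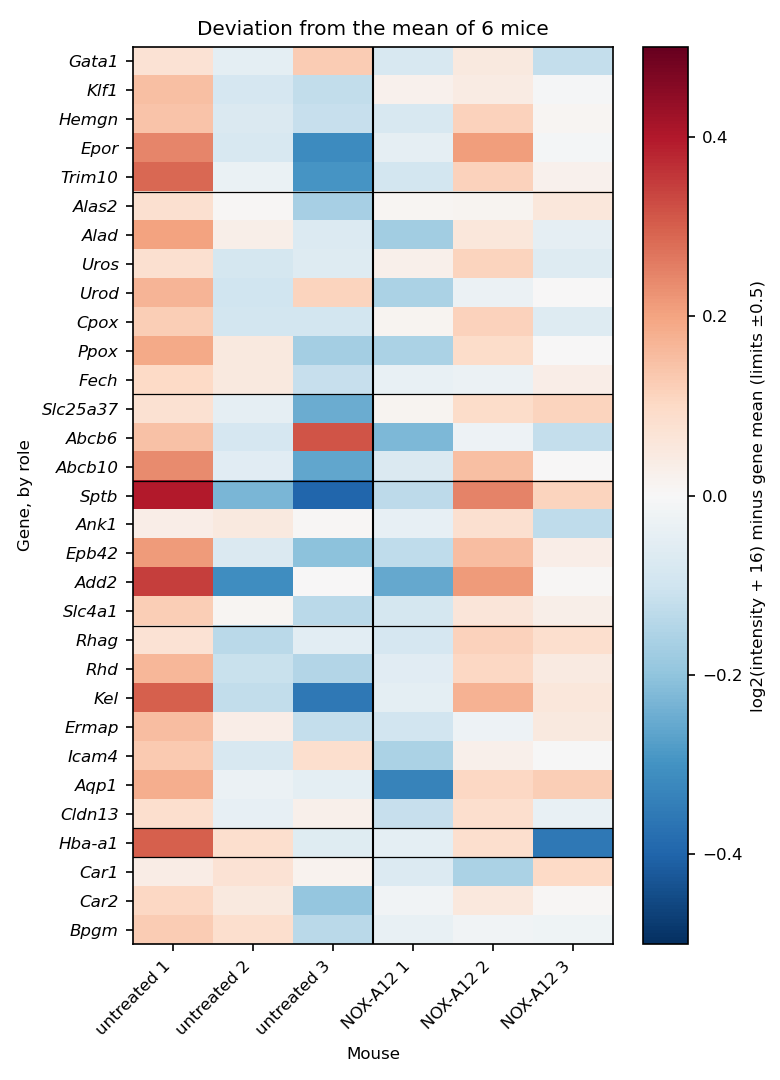
Deviation of log2(intensity + 16) from each gene's mean over the 6 mice, red above and blue below, with mice in columns and genes in rows grouped by role; colours saturate at 0.5. The column of untreated mouse 1 is mostly red (highest for 24 of 31 genes) and that of untreated mouse 3 mostly blue (lowest for 17 of 31).

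Heme enzymes were then set against the membrane skeleton within each mouse. The mean deviation of the 7 heme enzymes was 0.14, -0.02 and -0.08 in untreated and -0.07, 0.05 and -0.01 in treated mice. The mean of the 5 skeleton genes moved over a wider range in the same mice, at 0.22, -0.11 and -0.14 in untreated and -0.13, 0.15 and 0.01 in treated mice. Not every skeleton gene did so. Sptb, Add2 and Epb42 had ranges of 0.79, 0.66 and 0.42. Slc4a1 and Ank1, at 0.26 and 0.21, lay within those of single heme enzymes (0.20 for Uros to 0.37 for Alad). Heme minus skeleton averaged 0.02 ± 0.096 over untreated mice and -0.02 ± 0.0824 over treated mice (SD, n = 3 each). The difference between the groups, -0.04, was smaller than the spread between mice of 1 group, and the groups overlapped. It ranged from -0.10 to -0.0022 when single mice were left out. The lowest was without untreated mouse 1, where its size passed that spread of 0.0894, and the highest without treated mouse 2. That spread is an SD of single mice with every mouse kept, so it cannot decide whether a difference of group means is large. The balance was negative in untreated mouse 1 and treated mouse 2, which had the highest erythroid levels of their groups, and also in treated mouse 3 (-0.021), and it was positive in untreated mice 2 and 3 and treated mouse 1.

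**Figure D4:**
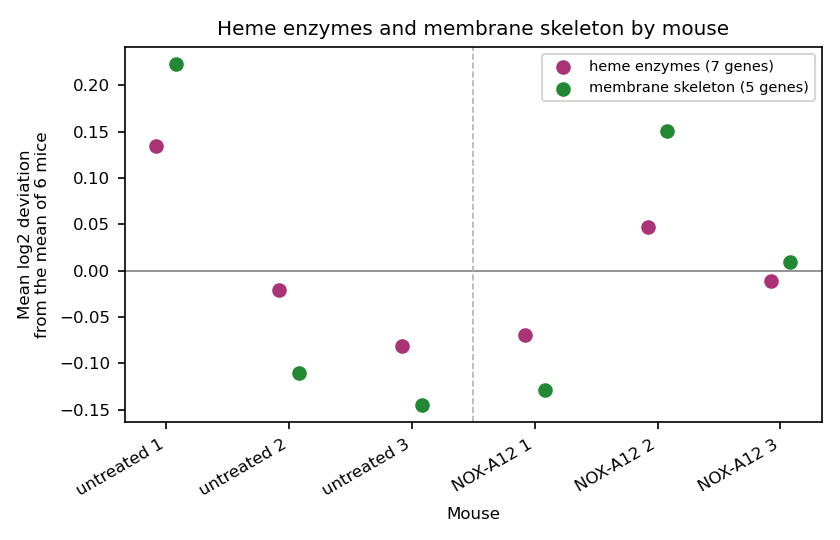
Mean deviation in log2 units of 7 heme enzyme genes and 5 membrane skeleton genes (vertical axis) in each of the 6 mice (horizontal axis), with untreated mice to the left of the dashed line. Skeleton genes span 0.37 over the mice and heme enzymes 0.22, and neither separates the groups.

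Other probe sets of the same genes gave the same absence of calls but not always the same sign. Of the 31 genes, 13 had more than 1 probe set of their own, 25 further probe sets in all. None of the 25 passed in limma, 1 of them had an unadjusted p under 0.05 (against 4.97% of all probe sets), and 13 had the sign of the probe set used. For 6 genes (Add2, Ank1, Bpgm, Fech, Sptb and Uros) at least 1 probe set had the opposite sign. Fech gave 0.06 ± 0.10 and -0.10 ± 0.14 at its other bright probe sets, and 0.49 ± 0.19 at one with intensities from 2.48 to 18.1. Sptb gave -0.20 ± 0.11 at a dim probe set with intensities from 29.5 to 47.0. Uros gave -0.18 ± 0.15 at its dimmer probe set. Ank1 gave from -0.03 to 0.22 at its 3 others, and Add2 from 0.02 to 0.25 at its 4 others.

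In untreated mouse 3 some probe sets of 1 gene parted from each other. These genes were chosen after their values were seen. Epb42 read 1359 in that mouse at the probe set used, against 1435 to 1818 in the other 5. At its second probe set the mouse read 65.9, against 187 to 359.9. Bpgm read 4845 against 5185 to 5808 at the probe set used and 1363 against 2906 to 4015 at its dimmest. The second probe set of Abcb10 read 280.1 against 513 to 879. These 3 of the 56 probe sets (5.36%) lay over 2-fold below the median of the other mice on that array, against 1.73% of all probe sets, and 0 of the 56 lay over 2-fold away on any other array. At those probe sets the treated mean was higher, by 0.42 ± 0.50 for Epb42, 0.23 ± 0.37 for Bpgm and 0.30 ± 0.39 for Abcb10. Without untreated mouse 3 the changes were -0.18 ± 0.27, -0.24 ± 0.12 and -0.16 ± 0.22.

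**Figure D5:**
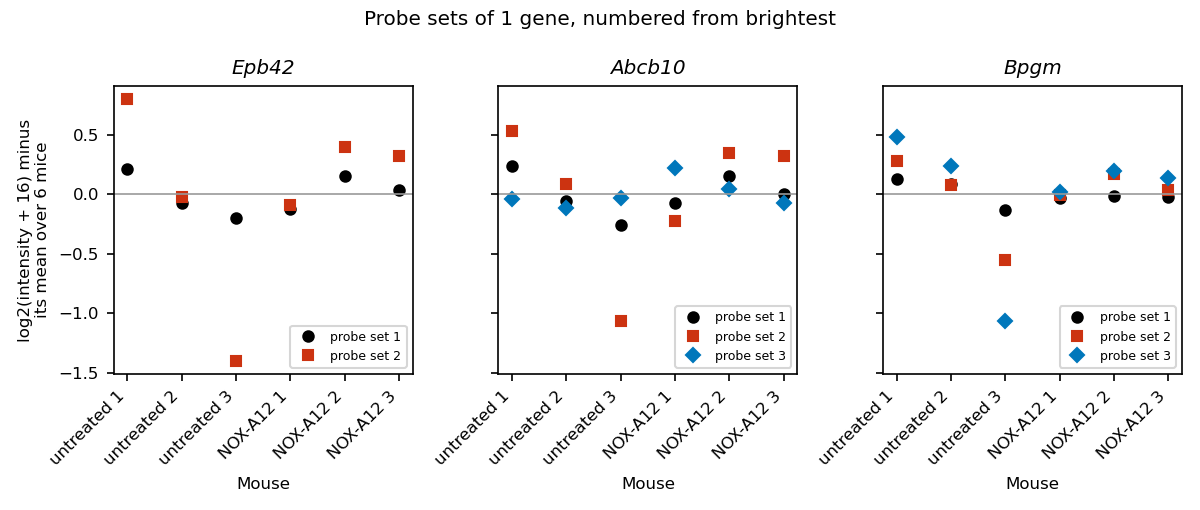
Log2(intensity + 16) minus its mean over the 6 mice (vertical axis) for every probe set of Epb42, Abcb10 and Bpgm, numbered from the brightest, by mouse (horizontal axis). In untreated mouse 3 the second probe set of Epb42 and of Abcb10 and the dimmest of Bpgm fall more than 1 unit below the mean, while the probe set used for each gene stays within 0.3 of it.

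Other genes of the same pathways, 66 measured in 6 lists, gave 0 calls past the limma threshold in either direction. The 3 treated and 3 untreated mice did not overlap for 11 of the 66 (16.7%), 1 higher and 10 lower. With 1 probe set per gene they did not overlap for 1929 of all 18193 genes, and for 9.85% of all probe sets. Genes as a whole also leaned lower, with 643 lower and 323 higher at an unadjusted limma p under 0.05. Of 11 further heme and iron-sulfur genes, 4 were higher and 7 lower in the mean (median -0.08), from Hmox1, the heme-degrading oxygenase, at -0.31 ± 0.14 to Alas1, the housekeeping form of the first enzyme, at 0.11 ± 0.12. Of 14 further membrane genes, 5 were higher and 9 lower (median 0.00), with Gypc, glycophorin C, at 0.18 ± 0.18 and Slc2a1, a glucose carrier, at -0.23 ± 0.14. Of 12 genes of red cell maturation and antioxidant defence, 5 were higher and 7 lower (median -0.01), with Ube2l6 at 0.30 ± 0.15 and Tspo2 at -0.18 ± 0.10. No gene of these lists had an unadjusted limma p under 0.05. Without untreated mouse 3 the changes shrank to -0.20 for Hmox1, 0.016 for Alas1, 0.041 for Gypc, -0.11 for Slc2a1 and 0.16 for Ube2l6.

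Of 18 further regulators, 9 were higher and 9 lower (median 0.00). Gfi1b, a repressor needed for both red cells and megakaryocytes, had 799, 960.5 and 1143 in untreated mice 1 to 3 and 799, 659.9 and 709 in treated mice 1 to 3. The groups did not overlap, as for 9.85% of all probe sets, but they nearly met, at 799.13 in untreated mouse 1 and 798.71 in treated mouse 1. The Gfi1b change of -0.40 ± 0.15 had an unadjusted limma p of 0.0288 and an adjusted p of 0.967. Without untreated mouse 3 it was -0.28. Foxo3, which drives antioxidant genes in maturing erythroblasts, gave 0.11 ± 0.13, and -0.02 without untreated mouse 3. Of 6 iron uptake genes, 3 were higher and 3 lower (median -0.07), with the transferrin receptor genes Tfrc at 0.07 ± 0.10 and Tfr2 at -0.26 ± 0.11. Without untreated mouse 3 Tfrc was at 0.020. Of 5 other globin genes, 2 were higher and 3 lower. Among them the embryonic genes were dim, and so was the probe set of the adult alpha-globin gene Hba-a2, at 31.1 to 57 over the 6 mice. Hbb-bh1 read 17.4, 12.1 and 22 in untreated mice 1 to 3 and 26.6, 26.1 and 28.6 in treated mice 1 to 3. Its groups did not overlap, but the change of 0.39 ± 0.13 had a limma adjusted p of 0.967 and was -0.094 at its second probe set. An offset of 1 gave 0.66 for Hbb-bh1 and 64 gave 0.17. Hbb-y gave -0.14 ± 0.16, 0.013 without untreated mouse 3, and -0.33 and -0.052 with these offsets.

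Markers of other marrow cells were read beside the red cell genes. The 8 neutrophil markers gave 5 higher and 3 lower means (median 0.02), and the 7 monocyte and macrophage markers, a type that nurses erythroblasts, 3 higher and 4 lower (median -0.02). Those of the B lineage were lower for 5 of 5 (median -0.49, summed intensity 3414 to 4136 in untreated and 2366 to 3235 in treated mice) and those of stroma for 6 of 6 (median -0.49, summed intensity 5851 to 7628 in untreated and 4299 to 5495 in treated mice), with 0 past the limma threshold in any list. Their genes with the smallest unadjusted p were Mmp8 (0.12 ± 0.09), Spic (-0.27 ± 0.16), Cd79a (-0.53 ± 0.15) and Pdgfra (-0.58 ± 0.09), in the same order, and Kdr (-0.54 ± 0.12) for endothelium, Vwf (-0.20 ± 0.17) for megakaryocytes, Calcr (-0.24 ± 0.12) for osteoclasts, Ckm (0.38 ± 0.14) for skeletal muscle and Aurka (0.14 ± 0.15) for proliferation. The largest part of the stromal sums was Cxcl12, the gene of the chemokine that NOX-A12 binds. It read 3608 to 4098 in untreated and 2580 to 3131 in treated mice (-0.39 ± 0.11). Without untreated mouse 3 Mmp8 was at 0.074, Vwf at -0.10 and Aurka at 0.067. Calcr was dim, with intensities from 2.79 to 10.4, and its change was -0.78 with an offset of 1 and -0.075 with 64. Ckm gave 0.54 and 0.19 with the same offsets. The 6 skeletal muscle markers had summed intensities of 265 to 287 in untreated and 269 to 313 in treated mice. No probe set on these arrays read below 0.66, so a value above 0 does not show that a cell type was present. Of the muscle markers, Tnnt3 read 1.41 to 9.61 and Mylpf 141 to 159. The part of these populations in the erythroid values was not tested.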

How the data were processed

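Total RNA of whole marrow from 3 untreated and 3 NOX-A12 mice was measured on Affymetrix Mouse Genome 430 2.0 arrays. Groups and mouse numbers were read from the sample titles. That numbering gives 1 mouse per array, so the limma p-values set the group difference against the spread between these animals. This spread cannot be parted from that between arrays, and limma also draws on the spread of all probe sets. The authors deposited linear intensity values per probe set, already summarised; the software and normalization are not given in the labels. These values ran from 0.66 to 16790. As log2(intensity + 16), array medians differed by 0.0193, and no normalization was added.

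The platform annotation named 1 gene for 34945 of 45037 probe sets, several for 932 and none for 9160. Promoters came from RefSeq (GRCm38.p6). Limma 3.58.1 in R 4.3.3 (lmFit, eBayes, two-sided, no covariate) was fitted on all probe sets, with Benjamini-Hochberg adjustment and 7.24 degrees of freedom. The fit was tested on simulated data. Counts and medians over lists carry no test. The members and lists were chosen with earlier results of these data known.

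By a set rule, each mouse's values are printed for listed genes whose groups do not overlap, the 4 smallest p, the brightest gene of a role and genes whose probe sets differ in sign, with some further genes added for their role. From each other pathway list the gene with the smallest p in each direction is named, and from each cell list the gene with the smallest p. Hbb-b2, Hba-a2, Mmp9, Cxcl12 and the genes shown for untreated mouse 3 were added after their values were seen. Alternatives were normalization by quantiles or medians, an offset of 1 or 64, a dim-probe filter, other variance models, weighted arrays, a block on mouse number, omission of each mouse, other choices of probe set, and a threshold of 0.1. Figures were drawn with matplotlib 3.10.9.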

Additional observations from a re-analysis of the deposited data

How the results depend on the processing

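No probe set, no erythroid gene and no other pathway gene passed an adjusted p of 0.05 in limma under any alternative run, nor 0.1 in the original fit. At an unadjusted p under 0.05 the original count of probe sets was 2240. With all 45037 probe sets tested it ran from 1508 without treated mouse 1 to 3555 without untreated mouse 1, and it was lower where fewer features were tested (1055 above the median level, 1119 with 1 probe set per gene). The median change over the 31 genes stayed between -0.06 and 0.09, where the spread between mice of 1 group was 0.112. Heme minus skeleton stayed between -0.098 and -0.0022. Its lowest value, without untreated mouse 1, was larger in size than its own spread between mice of 1 group (0.0894). Both spreads are SDs of single mice with every mouse kept. They cannot decide whether a difference of group means is large, least of all without untreated mouse 1, which adds to them. With mouse numbers as a replicate block 0 probe sets and 0 erythroid genes passed, and 2117 probe sets had an unadjusted p under 0.05. The numbers name different animals, and deviations of same-numbered mice correlated at -0.09, 0.05 and 0.03. Those of differently numbered mice ran from -0.21 to 0.22. With 3 mice a group these correlations cannot decide whether same-numbered mice shared their handling.

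Single changes near 0 had no stable sign. For the erythroid genes, 16 of 384 values from settings that keep all 6 mice had the other sign, and 27 of 186, over 18 genes, when a mouse was left out. A gene's second probe set gave -0.18 for Uros, 0.062 for Fech, -0.20 for Sptb, 0.024 for Add2, 0.13 for Bpgm, -0.094 for Hbb-bh1, 0.077 for Hbb-y, -0.035 for Tfrc and -0.048 for Ckm. Averaging all probe sets of a gene gave -0.065 for Uros, 0.11 for Fech, -0.025 for Sptb, 0.061 for Ank1, 0.089 for Add2 and 0.10 for Bpgm. Without the probe sets that may cross-hybridise the changes were 0.062 for Fech and 0.13 for Bpgm, and array weights gave 0.070 for Add2, -0.014 for Slc4a1 and -0.0051 for Car2. With single mice left out, the ranges were -0.014 to 0.12 for Klf1, -0.021 to 0.11 for Hemgn, -0.030 to 0.25 for Epor, -0.11 to 0.18 for Trim10, -0.018 to 0.10 for Alas2, -0.0032 to 0.11 for Cpox, -0.14 to 0.040 for Ppox, -0.087 to 0.022 for Fech, -0.064 to 0.18 for Abcb10, -0.0090 to 0.39 for Sptb, -0.050 to 0.16 for Epb42, -0.19 to 0.14 for Add2, -0.067 to 0.063 for Slc4a1, -0.028 to 0.30 for Kel, -0.12 to 0.018 for Ermap, -0.15 to 0.080 for Aqp1, -0.10 to 3.28e-04 for Cldn13, -0.061 to 0.086 for Car2, -0.23 to 0.013 for Hbb-y, -0.020 to 0.21 for Foxo3 and -0.049 to 2.97e-04 for Hbb-b2. Genes with 1 probe set have no value in the second-probe setting, and Hba-a1 was dropped by the filter on dim probe sets. For Hba-a1, Hba-a2, Calcr and the embryonic globins, dim signal limits what can be seen.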
